A study of Mus musculus with 20 samples.

Results

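The genes described here are 50 genes of mitosis, the division of a nucleus into daughter nuclei. They were listed for roles in chromosome condensation, kinetochores, the spindle, mitotic kinases and cytokinesis, with earlier results of these data known, so their shares of calls are descriptions. Of the 50, 49 had a probe set of the array annotated to that gene alone, among 19938 genes and 35511 probe sets in all. Ccnb1 (cyclin B1) had none and was not analysed here. Top2a had 2 such probe sets, of which the one with the higher mean over all arrays was used, and each of the other 48 genes had 1.

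The data are 20 Affymetrix MoGene 1.0 ST arrays of C57bl6/J mouse islets in 6 groups. Pancreatic islets came from female mice, either pregnant (gestation day 12.5, written P12.5, n = 4) or non-pregnant (NP, n = 4). Islets of female donors, grafted beneath the renal capsule of female hosts, were recovered from P12.5 hosts (n = 3) and NP hosts (n = 3), and grafts of male donor islets in female hosts likewise at P12.5 (n = 3) and NP (n = 3). All graft hosts, NP hosts included, had received streptozotocin, a toxin of beta cells, before transplantation, and pregnancy was attempted only in hosts that had returned to normal glucose. No such toxin is described for donors of the pancreatic islets. The pancreatic islet arrays are marked as a reanalysis. Transplantation, streptozotocin and the set of arrays therefore cannot be told apart when grafts are compared with pancreatic islets. The arrays are called biological replicates but no animals are named, so p-values reflect only how far these samples spread, which may be in part technical. RNA came from whole islets or grafts, and a larger share of dividing cells cannot be told apart from more mitotic RNA in each dividing cell.

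Mitosis genes are expressed in a wave. Their transcripts are scarce in resting cells, build up after DNA replication and are removed when division ends, so that in a tissue of mostly resting cells they report on the few cells that divide. Cyclin-dependent kinase 1 with its cyclins drives entry into mitosis, condensins compact the chromosomes, kinetochores attach them to spindle microtubules, the anaphase-promoting complex releases the sister chromatids, and a contractile ring with the central spindle separates the daughter cells. Adult beta cells, the insulin producers that make up most of an islet, divide rarely, and their division is known to rise in pregnant mice.

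Many mitosis genes share promoter sequences. The cell cycle genes homology region, or CHR element, is bound by the MuvB complex, which represses these genes in resting cells and, with B-MYB and FOXM1, takes part in their activation late in the cell cycle. The CCAAT box is bound by the factor NF-Y. Promoters of the listed genes were therefore searched for TTTGAA (CHR, reverse complement TTCAAA) and CCAAT (reverse complement ATTGG) on both strands, from 250 bases before to 50 bases after the annotated start. RefSeq promoters (GRCm38.p6) were listed for 42 of the 50 genes, Ccnb1 among them, as 44 windows, since Ect2 and Prc1 have 2 overlapping windows each. Aurkb, Ccna2, Dlgap5, Foxm1, Kif20a, Pbk, Spc24 and Tpx2 had no entry.

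TTTGAA occurred in 35 of the 44 windows (79.5%), against 17.9% of all 32851 mouse promoter windows of that length. CCAAT occurred in 34 windows (77.3%), against 37.4% of all promoters, and at least 2 CCAAT boxes in 23 (52.3%), against 11.7%. Both motifs were present in 30 windows (68.2%), against 6.95% of all promoters. A CCAAT box whose first base lay 20 to 50 bases before that of a TTTGAA was found in 20 windows (45.5%), against 1.14% of all promoters. Of the 46 TTTGAA matches, 34 lay from 60 bases before the start to the end of the window, and 75 of the 78 CCAAT matches lay before the start. Most of each window, 250 of its 300 bases, lies before the start, and these positions were not counted over all promoters. Matches in the overlapping windows of Ect2 and Prc1 were counted in each window. In 1 case the motifs shared a base. These counts describe letters in a window and do not show that a factor binds there.

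The 150 bases before the start are printed here, 5′ to 3′ on the strand of the gene, with matches to either motif in capitals. They are given for some, not all, of the genes called in the comparisons that follow, and for Cdc20 and Ube2c, which were not called. Top2a, Cdk1, Mki67, Prc1, Cdc20 and Ube2c carry both motifs in this stretch, Bub1 carries CCAAT boxes alone, and Melk carries neither. Among genes called in islets and not printed, Ect2 and Kif11 carry both motifs in this stretch. Anln, Bub1b, Hmmr, Kif23, Nek2, Nuf2, Plk1 and Racgap1 carry no TTTGAA in it.
Top2a (chr11:99024190-99024339, minus strand): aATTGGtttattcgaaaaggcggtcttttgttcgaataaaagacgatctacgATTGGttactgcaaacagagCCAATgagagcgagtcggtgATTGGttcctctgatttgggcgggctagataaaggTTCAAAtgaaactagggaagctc
Cdk1 (chr10:69352913-69353062, minus strand): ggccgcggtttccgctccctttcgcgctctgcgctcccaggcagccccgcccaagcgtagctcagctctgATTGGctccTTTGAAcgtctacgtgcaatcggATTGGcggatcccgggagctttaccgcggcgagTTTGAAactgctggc
Mki67 (chr7:135716380-135716529, minus strand): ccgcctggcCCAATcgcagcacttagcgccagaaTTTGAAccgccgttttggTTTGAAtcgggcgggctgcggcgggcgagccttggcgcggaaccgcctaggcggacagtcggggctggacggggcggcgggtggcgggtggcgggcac
Prc1 (chr7:80294326-80294475, plus strand): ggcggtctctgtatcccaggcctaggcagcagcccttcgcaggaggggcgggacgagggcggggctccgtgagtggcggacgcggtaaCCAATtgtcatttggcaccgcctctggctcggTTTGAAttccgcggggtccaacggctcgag
Cdc20 (chr4:118437344-118437493, minus strand): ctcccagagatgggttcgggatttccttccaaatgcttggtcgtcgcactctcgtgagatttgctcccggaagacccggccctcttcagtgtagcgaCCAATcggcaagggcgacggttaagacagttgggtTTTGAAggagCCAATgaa
Ube2c (chr2:164769779-164769928, plus strand): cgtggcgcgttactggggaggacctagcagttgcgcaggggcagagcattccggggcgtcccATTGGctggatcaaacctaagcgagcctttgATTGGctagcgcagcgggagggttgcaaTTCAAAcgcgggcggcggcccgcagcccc
Bub1 (chr2:127831860-127832009, minus strand): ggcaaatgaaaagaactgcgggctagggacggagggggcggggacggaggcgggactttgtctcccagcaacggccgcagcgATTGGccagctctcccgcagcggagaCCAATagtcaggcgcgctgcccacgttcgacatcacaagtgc
Melk (chr4:44300767-44300916, plus strand): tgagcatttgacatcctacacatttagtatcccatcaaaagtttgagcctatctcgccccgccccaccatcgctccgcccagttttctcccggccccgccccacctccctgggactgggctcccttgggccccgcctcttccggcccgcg

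For the TTTGAA match nearest the start, the closest CCAAT box before it lay 35 bases away in Top2a, 33 in Cdk1, 32 in Prc1, 35 in Cdc20 and 28 in Ube2c. In Mki67, with 2 TTTGAA matches, the spaced pair closest together was 25 bases apart. Among other mitosis genes that are not in the list, TTTGAA was present in 46.2% of 65 windows and the spaced pair in 16.9%. Among DNA replication genes, which are switched on earlier in the cell cycle, TTTGAA was present in 17.5% of 57 windows, close to the share of all promoters, and the spaced pair in 3.51%.

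**Figure D1:**
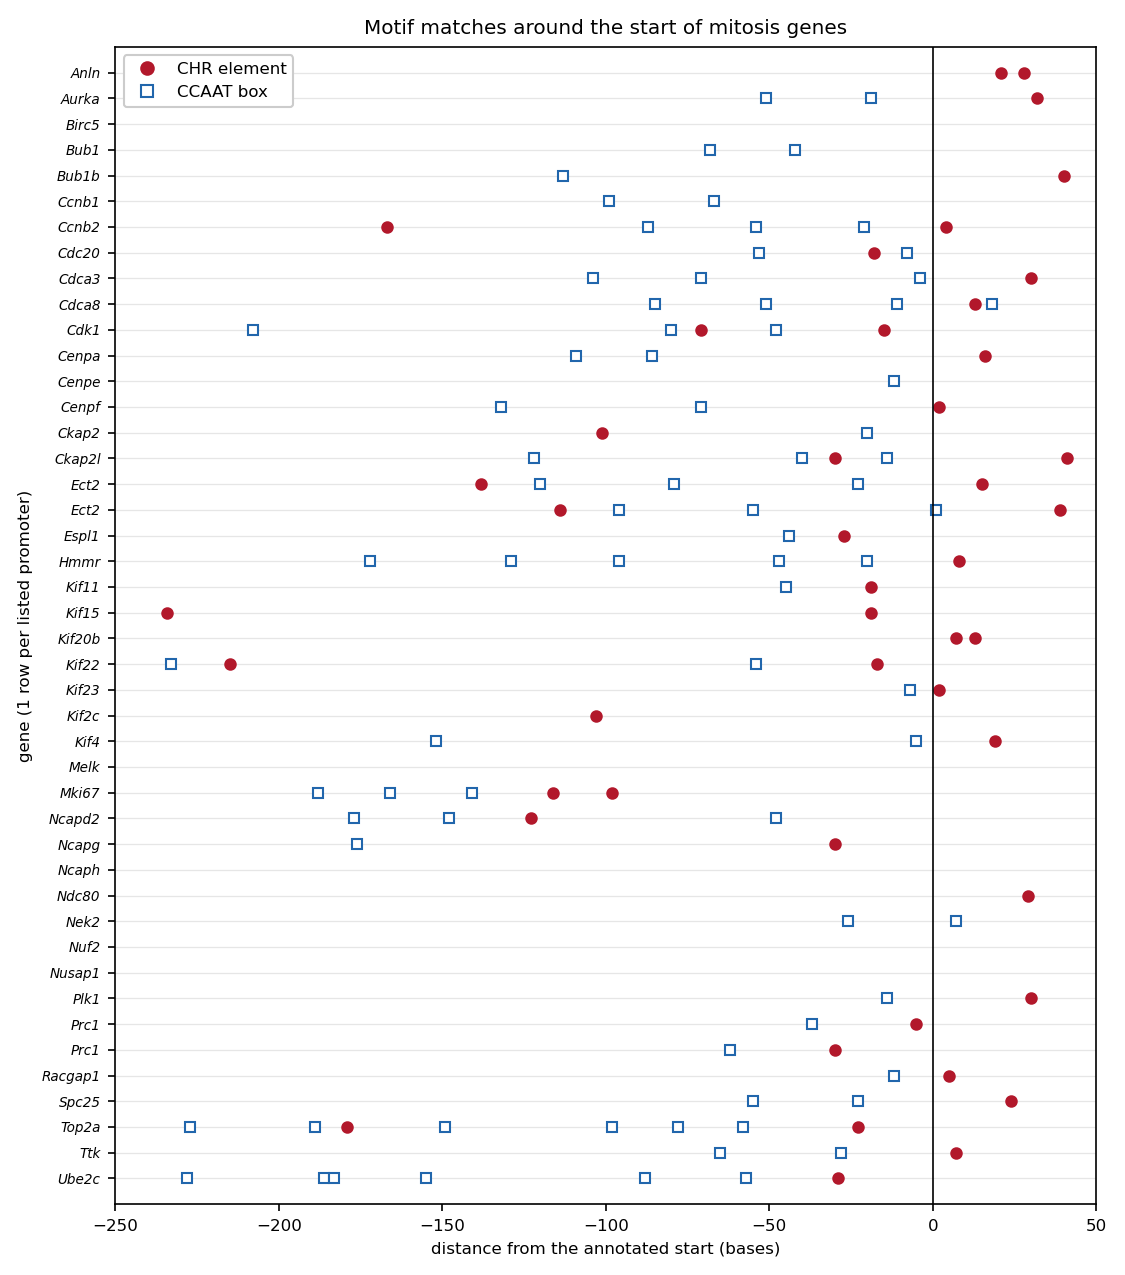
Matches to the CHR element (filled circles) and the CCAAT box (open squares) by distance in bases from the annotated start, for the 44 promoter windows of 42 listed mitosis genes. Of 46 CHR matches, 34 lie from 60 bases before the start onward, and 75 of 78 CCAAT matches lie before it. The windows reach 250 bases before the start and 50 after it, and matches in overlapping windows are counted in each.

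Values are log2 signals after robust multi-array averaging (RMA), rounded to 1 decimal by the depositors, so 1 unit is a doubling and 0.1 is the smallest step. A change is the P12.5 mean minus the NP mean, and a gene was called when its adjusted p was under 0.05 (limma, two-sided, Benjamini-Hochberg adjustment over all probe sets) and its fold at least 1.5. Over all probe sets, medians per array lay between 5.9 and 6.0 and lower quartiles between 4.7 and 4.9. Beta cell markers, set against the islet label, averaged between 10.53 and 11.27 in every array, and NP islet array 1 had a lower highest signal (13.4) than the other 19 arrays (14.4 or more). Averaged over the 49 genes, the mean level was 5.89 to 6.03 in P12.5 islets, against 5.35 to 5.44 in NP islets. It was 5.85 to 6.01 in female grafts at P12.5, against 5.31 to 5.50 in female NP grafts. In male grafts it was 5.65 to 5.89 at P12.5, against 5.42 to 5.64 in NP grafts. The P12.5 and NP ranges did not overlap in any of the 3 pairs, but they nearly touched in male grafts.

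In pancreatic islets, 20 of the 49 mitosis genes rose at P12.5 and none fell. That is 40.8% of the genes, where 0.614% of all probe sets were called up. All 49 changes were positive, from 0.18 for Espl1 to 1.35 for Top2a, with a median of 0.53, where the median over all probe sets was 0. A further 11 genes passed the adjusted p without reaching the fold of 1.5, making 31 of 49 by p alone, where 1.09% of all probe sets passed upward. Every P12.5 array was above every NP array for 36 of the 49 genes, where this held for 3.83% of all probe sets.

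Female grafts followed with 12 genes called up and none down in P12.5 hosts (24.5%, where 0.836% of probe sets were called up). Again all 49 changes were positive, from 0.23 for Aurka to 1.70 for Pbk, with a median of 0.47 against 0.03 over all probe sets. By adjusted p alone 14 genes passed, where 1.14% of probe sets did. The P12.5 and NP arrays did not overlap for 41 of the 49 genes, where 12% of probe sets had every P12.5 array above. In male grafts 1 gene, Prc1, was called up (2.04%, where 0.479% of probe sets were called up), and it was the only gene to pass by adjusted p alone, where 0.521% of probe sets did. The changes were positive for 45 genes, negative for Kif15, Cenpa and Cdca3 and 0 for Bub1b, with a median of 0.23 against 0 over all probe sets. Male arrays did not overlap for 8 of the 49 genes, all higher at P12.5, where 8.72% of probe sets had every P12.5 array above. At an unadjusted p under 0.05, 46 genes passed in islets (11.8% of probe sets in either direction), 40 in female grafts (21.2%) and 15 in male grafts (19.5%).

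With both donor sexes averaged, 6 arrays against 6, 5 genes were called (10.2%, where 1.97% of probe sets were called up): Pbk, Top2a, Ect2, Prc1 and Ccna2. Another 25 passed the adjusted p below the fold of 1.5, so that 30 of 49 passed by p alone, where 6.9% of probe sets did. All 49 changes were positive, with a median of 0.37 against 0.02 over all probe sets. The 12 genes called in female grafts included 10 of the islet calls, which is 83.3% of the graft calls and 50% of the 20 islet calls. Ccnb2 and Ckap2l were called in female grafts and not in islets, and neither passed the test of the difference between grafts and islets given further on.

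**Figure D2:**
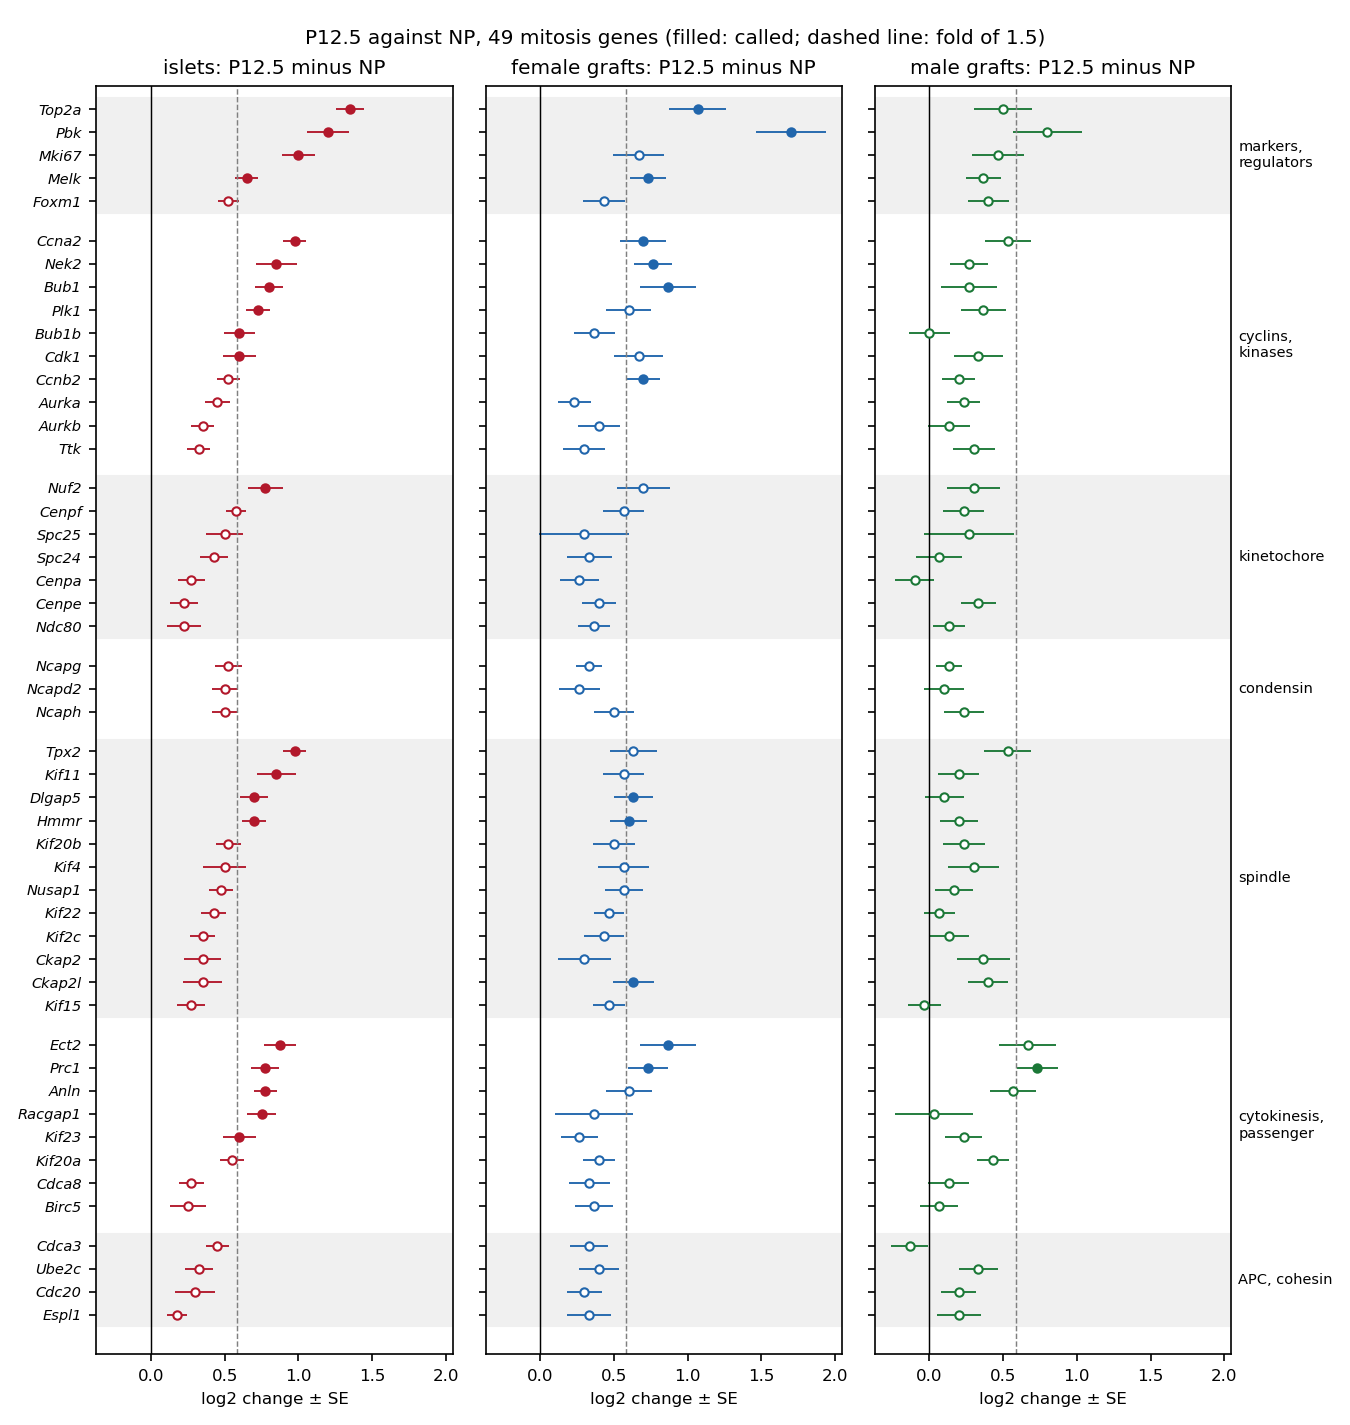
Log2 change at P12.5 against NP with its standard error (limma) for the 49 mitosis genes, by role, in pancreatic islets, female grafts and male grafts. Filled points are called genes (20, 12 and 1), the dashed line is a fold of 1.5, and all points lie right of 0 in islets and in female grafts.

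Among markers and regulators of proliferation, 4 of 5 genes rose in islets, 3 in female grafts and none in male grafts. Top2a, the topoisomerase that untangles sister DNA before segregation (probe set 10390707), read 7.2, 6.9, 7.0 and 6.9 in P12.5 islets, against 5.6, 5.8, 5.7 and 5.5 in NP islets. The islet groups were more than 1 unit apart, a change of 1.35 ± 0.10 (SE, 2.55-fold, adjusted p = 0.000304, limma). In female grafts Top2a read 7.2, 7.0 and 7.0 at P12.5, against 5.8, 6.2 and 6.0 in NP hosts (change 1.07 ± 0.20, adjusted p = 0.0268). In male grafts it read 7.0, 6.9 and 6.6 at P12.5, against 6.8, 6.2 and 6.0, where the groups overlapped through 1 high NP array (change 0.50 ± 0.20, adjusted p = 0.194). The other probe set of Top2a (10390746) was dim, with a mean of 3.18 over all arrays, and did not show this, with an islet change of -0.28 ± 0.08 (adjusted p = 0.159).

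Mki67 encodes Ki-67, the antigen most used to count dividing cells. It read 6.4, 6.3, 6.3 and 6.3 in P12.5 islets, against 5.0, 5.3, 5.5 and 5.5 in NP islets, a change of exactly 1 unit (SE 0.11, adjusted p = 0.00315). Female grafts read 6.5, 6.4 and 6.5 at P12.5, against 5.5, 5.9 and 6.0 in NP hosts, and although these arrays did not overlap the change of 0.67 ± 0.18 did not pass (adjusted p = 0.0716). Male grafts read 6.8, 6.3 and 6.4 at P12.5, against 6.3, 6.0 and 5.8 (change 0.47 ± 0.18, adjusted p = 0.181), and all 3 male NP arrays lay above the 4 NP islet arrays.

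Pbk, a mitotic kinase also known as TOPK, had the largest change of the 49 genes in both graft types. It read 6.8, 6.7, 6.7 and 6.5 in P12.5 islets, against 5.2, 5.4, 5.9 and 5.4 in NP islets (change 1.2 ± 0.14, adjusted p = 0.00395). In female grafts it read 6.8, 6.8 and 6.3 at P12.5, against 4.9, 4.8 and 5.1, a 3.25-fold difference (change 1.70 ± 0.24, adjusted p = 0.0110). In male grafts it read 6.4, 6.2 and 5.4 at P12.5, against 5.1, 5.4 and 5.1 in NP hosts, and P12.5 array 3 equalled the highest NP array (change 0.80 ± 0.24, adjusted p = 0.114). Without that array the male change was 1.10 and Pbk was called.

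Melk, a kinase of dividing cells, read 6.1, 5.9, 6.0 and 5.9 in P12.5 islets, against 5.2, 5.4, 5.3 and 5.4 (change 0.65 ± 0.08, adjusted p = 0.00461). It separated the arrays in both graft types as well, with 5.9, 6.2 and 5.8 at P12.5 against 5.3, 5.2 and 5.2 in female grafts (adjusted p = 0.0201) and 5.8, 5.7 and 5.6 at P12.5 against 5.4, 5.4 and 5.2 in male grafts, where it was not called (adjusted p = 0.144). Foxm1, the transcription factor that activates many mitosis genes, read 5.7, 5.8, 5.7 and 5.8 in P12.5 islets, against 5.1, 5.3, 5.2 and 5.3. Its islet change of 0.53 ± 0.07 passed the adjusted p (0.00903) but not the fold of 1.5. In grafts Foxm1 changed by 0.43 ± 0.14 (female, adjusted p = 0.117) and 0.40 ± 0.14 (male, adjusted p = 0.161).

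**Figure D3:**
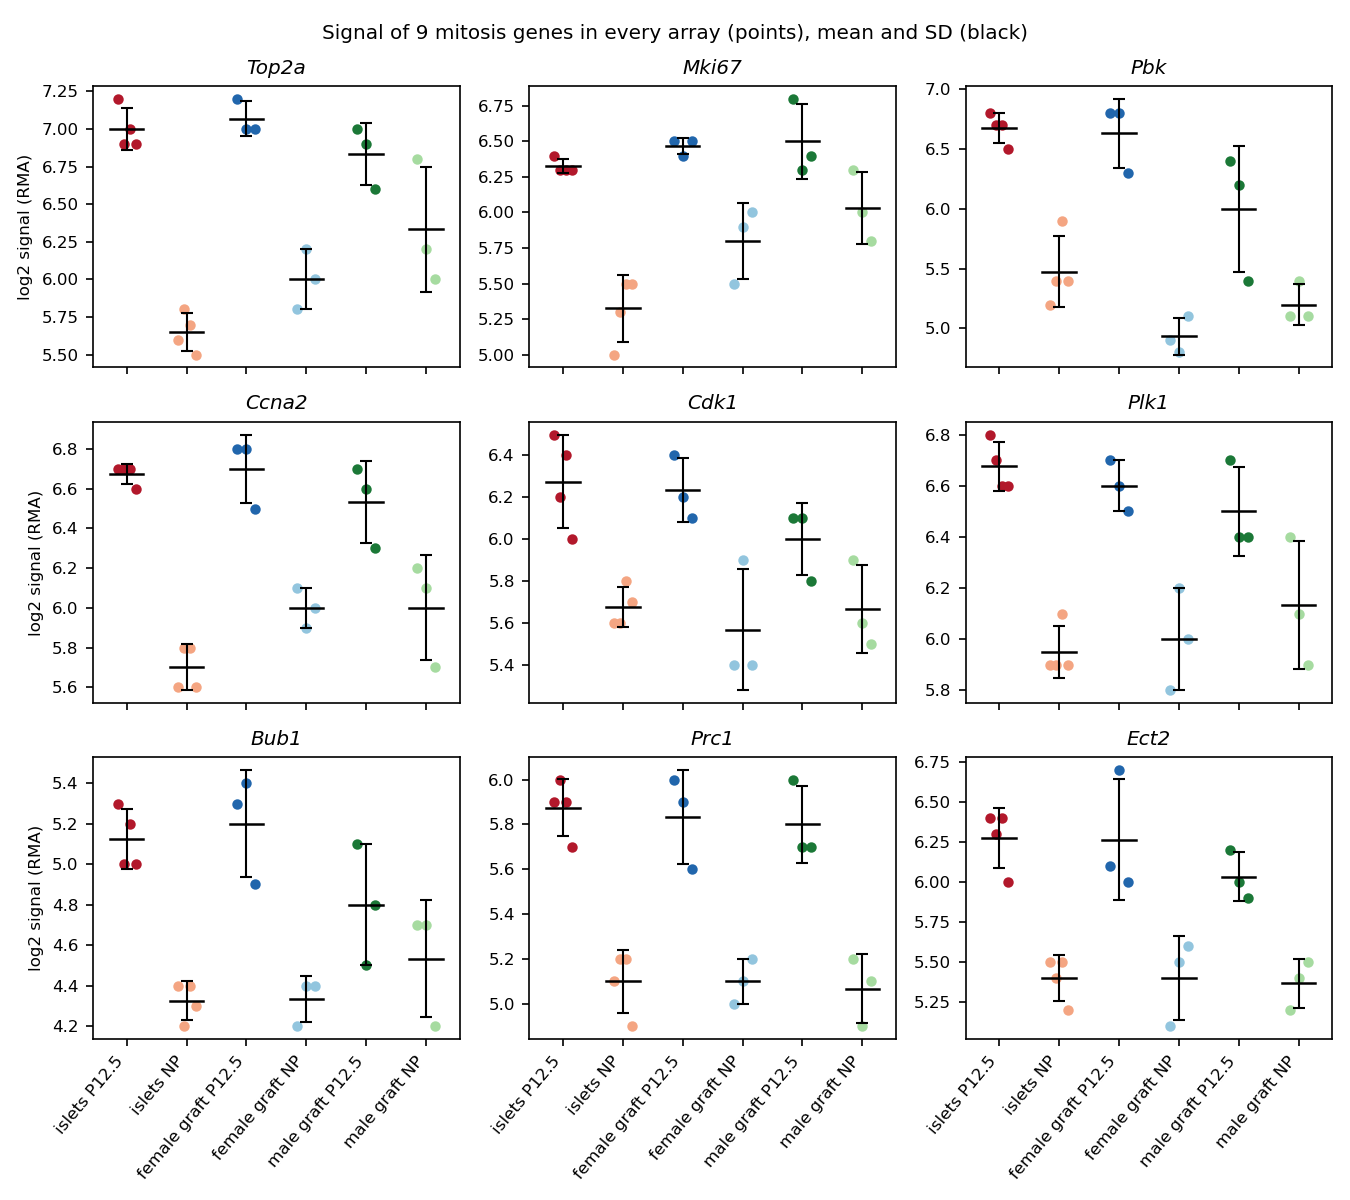
Log2 RMA signal of 9 mitosis genes in each of the 20 arrays (points) with the group mean and SD (black), each gene on its own axis. The P12.5 and NP arrays do not overlap in islets or in female grafts for any of the 9, and in male grafts they do not overlap for Ccna2, Prc1 and Ect2.

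Of the 10 measured cyclins and kinases, 6 rose in islets, 4 in female grafts and none in male grafts. Ccna2, the cyclin of S phase and early mitosis, read 6.7, 6.7, 6.7 and 6.6 in P12.5 islets, against 5.6, 5.8, 5.8 and 5.6 in NP islets (change 0.98 ± 0.08, adjusted p = 0.000455). It read 6.8, 6.8 and 6.5 in female grafts at P12.5, against 6.1, 5.9 and 6.0 (change 0.70 ± 0.16, adjusted p = 0.0473). In male grafts 6.7, 6.6 and 6.3 at P12.5 stood above 6.2, 6.1 and 5.7 without overlap, though the change of 0.53 ± 0.16 did not pass alone (adjusted p = 0.113).

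Cdk1, the kinase that starts mitosis, read 6.5, 6.2, 6.4 and 6.0 in P12.5 islets, against 5.6, 5.6, 5.8 and 5.7 (change 0.60 ± 0.11, adjusted p = 0.0375). That call sat close to both limits and was lost on leaving out any array except P12.5 array 4, with changes of 0.53 to 0.69. Female grafts read 6.4, 6.2 and 6.1 at P12.5, against 5.4, 5.9 and 5.4 (change 0.67 ± 0.17, adjusted p = 0.0637), and Cdk1 was called there without NP array 2, at 0.83. Male grafts read 6.1, 6.1 and 5.8 at P12.5, against 5.9, 5.6 and 5.5, with overlap (adjusted p = 0.293). Ccnb2, cyclin B2, read 6.7 in all 4 arrays of P12.5 islets, against 6.0, 6.2, 6.2 and 6.3, passing the adjusted p (0.0113) at a change of 0.53. In female grafts it read 6.7, 6.7 and 6.8 at P12.5, against 5.9, 6.2 and 6.0, and was called (change 0.70 ± 0.11, adjusted p = 0.0192).

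Plk1, the polo kinase needed for bipolar spindles, read 6.8, 6.7, 6.6 and 6.6 in P12.5 islets, against 5.9, 5.9, 6.1 and 5.9 (change 0.73 ± 0.08, adjusted p = 0.00295). It was not called in female grafts (6.7, 6.6 and 6.5 at P12.5, against 5.8, 6.2 and 6.0, adjusted p = 0.0669) nor in male grafts (6.7, 6.4 and 6.4 at P12.5, against 6.4, 6.1 and 5.9, adjusted p = 0.218). Bub1, a kinase of the checkpoint that delays anaphase until chromosomes are attached, read at or below the lower quartile of the arrays in NP samples. It read 5.3, 5.0, 5.2 and 5.0 in P12.5 islets, against 4.4, 4.2, 4.4 and 4.3 (change 0.80 ± 0.09, adjusted p = 0.00335), and 5.3, 5.4 and 4.9 in female grafts at P12.5, against 4.2, 4.4 and 4.4 (change 0.87 ± 0.19, adjusted p = 0.0461). In male grafts the arrays overlapped, with 5.1, 4.5 and 4.8 at P12.5 against 4.7, 4.7 and 4.2 (change 0.27 ± 0.19, adjusted p = 0.466).

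Nek2, a kinase of centrosome separation, read 5.8, 6.2, 6.3 and 6.0 in P12.5 islets, against 5.1, 5.0, 5.3 and 5.5 (change 0.85 ± 0.14, adjusted p = 0.0194), a call lost without any 1 of P12.5 arrays 2 and 3 and NP arrays 1, 2 and 3 (changes 0.78 to 0.94). In female grafts it read 5.9, 5.7 and 6.0 at P12.5, against 5.1 in all 3 NP arrays (change 0.77 ± 0.13, adjusted p = 0.0206), and in male grafts 5.7, 5.7 and 5.3 at P12.5, against 5.4, 5.2 and 5.3 (adjusted p = 0.280). Bub1b, the checkpoint protein BubR1, rose in islets (change 0.60 ± 0.10, adjusted p = 0.0276) and had a change of 0 in male grafts, where both groups averaged 6.0.

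The aurora kinases were not called. Aurka, which acts at spindle poles, read 6.7, 6.7, 6.7 and 6.6 in P12.5 islets, against 6.0, 6.3, 6.3 and 6.3, passing the adjusted p (0.0398) at a change of 0.45 ± 0.09. In female grafts it had the smallest change of all 49 genes, with 6.6, 6.5 and 6.7 at P12.5 against 6.3, 6.3 and 6.5 (change 0.23 ± 0.11, adjusted p = 0.267), and in male grafts it read 6.7, 6.5 and 6.4 at P12.5 against 6.2, 6.4 and 6.3 (0.23 ± 0.11, adjusted p = 0.285). Aurkb, the kinase of the chromosomal passenger complex, read 6.7, 6.7, 6.6 and 6.7 in P12.5 islets, against 6.2, 6.3, 6.3 and 6.5 (change 0.35 ± 0.08, adjusted p = 0.0804). Female grafts read 6.6, 6.6 and 6.5 for Aurkb at P12.5, against 6.1, 6.2 and 6.2, without overlap. Male grafts read 6.5, 6.7 and 6.2 for Aurkb at P12.5, against 6.6, 6.2 and 6.2, with overlap. Ttk, the checkpoint kinase MPS1, changed by 0.33 in islets (adjusted p = 0.0975).

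Of the 7 kinetochore genes, 1 rose in islets and none was called in grafts of either sex, with median changes of 0.43 in islets, 0.37 in female grafts and 0.23 in male grafts. Nuf2, a subunit of the microtubule-binding NDC80 complex, was the one that rose, reading 6.0, 5.9, 5.7 and 5.5 in P12.5 islets, against 5.1, 5.1, 5.0 and 4.8 (change 0.78 ± 0.12, adjusted p = 0.0154). Its partner Ndc80 read 5.1, 5.3, 5.6 and 5.4 in P12.5 islets, against 5.1, 5.1, 5.0 and 5.3, overlapping in islets (change 0.23 ± 0.11, adjusted p = 0.502). In grafts Ndc80 read 5.4, 5.4 and 5.2 at P12.5 against 5.0, 5.0 and 4.9 (female, adjusted p = 0.0937) and 5.2, 5.2 and 5.1 at P12.5 against 5.2, 4.9 and 5.0 (male, adjusted p = 0.519).

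Cenpa, the histone that marks centromeres, gave no call in any setting. It read 6.8, 6.7, 6.7 and 6.6 in P12.5 islets, against 6.3, 6.3, 6.6 and 6.5 (adjusted p = 0.235), 6.8, 7.0 and 6.7 in female grafts at P12.5, against 6.5, 6.8 and 6.4 (adjusted p = 0.274), and 6.7, 6.7 and 6.6 in male grafts at P12.5, against 6.9, 6.8 and 6.6 (change -0.10 ± 0.13, adjusted p = 0.713). Cenpf, which loads onto kinetochores before mitosis, passed the adjusted p in islets (0.00436) with a change of 0.58 ± 0.07, just below the fold of 1.5, and all 4 of its NP islet arrays read 5.3.

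Spc25, a further NDC80 complex subunit, stood apart in level. Its probe set lay between the 90.1 and 97.6 percentile of the arrays, where no other of the 49 genes passed the 76.6 percentile. It read 9.7 to 10.2 in P12.5 islets, against 9.3 to 9.7 in NP islets, with overlap at 9.7 (change 0.50 ± 0.13, adjusted p = 0.119). G6pc2, a gene of beta cells, lies 4859 bases from Spc25 on chromosome 2 (GRCm38.p6) and read 12.7 to 13.0 in P12.5 islets, against 12.1 to 12.6 in NP islets. Whether the Spc25 probe set also reads transcripts from G6pc2 was not tested.

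The 3 condensin genes had similar values in islets, with changes of 0.50 to 0.53 that passed the adjusted p and not the fold. Ncapg, a subunit that helps condensin to bind DNA, read 5.4, 5.2, 5.3 and 5.1 in P12.5 islets, against 4.7, 4.7, 4.9 and 4.6, without overlap (change 0.53 ± 0.09, adjusted p = 0.0283). It read 5.3 in all 3 female grafts at P12.5, against 4.9, 5.0 and 5.0 (adjusted p = 0.0692), and 5.2, 5.1 and 5.2 in male grafts at P12.5, against 5.0, 5.1 and 5.0 (adjusted p = 0.419). Ncapd2 and Ncaph, the other condensin subunits, had adjusted p of 0.0279 each in islets.

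Of the 12 spindle motors and microtubule proteins, 4 rose in islets, 3 in female grafts and none in male grafts. Tpx2, which activates Aurka on spindle microtubules, read 6.2, 6.2, 6.3 and 6.1 in P12.5 islets, against 5.3, 5.1, 5.3 and 5.2 (change 0.98 ± 0.08, adjusted p = 0.000455). Kif11, the kinesin that pushes spindle poles apart, read 5.7, 5.6, 5.7 and 5.4 in P12.5 islets, against 4.5, 5.1, 4.8 and 4.6 (change 0.85 ± 0.13, adjusted p = 0.0163). Its call was lost without any 1 of P12.5 arrays 1, 2 and 3 and NP arrays 1, 3 and 4 (changes 0.77 to 0.97). In grafts Kif11 changed by 0.57 ± 0.14 (female, adjusted p = 0.0611) and 0.20 ± 0.14 (male, adjusted p = 0.449).

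Dlgap5 and Hmmr, which stabilise and organise spindle microtubules, were called in islets and in female grafts. Dlgap5 read 6.0, 6.0, 5.9 and 5.9 in P12.5 islets, against 5.3, 5.3, 5.0 and 5.4 (adjusted p = 0.00705), and 6.1, 6.1 and 5.8 in female grafts at P12.5, against 5.2, 5.4 and 5.5 (adjusted p = 0.0394). In male grafts it read 5.9, 5.9 and 5.6 at P12.5, against 5.8, 5.7 and 5.6, so that P12.5 array 3 lay no higher than any NP array (change 0.10 ± 0.13, adjusted p = 0.713). Hmmr read 4.8, 4.6, 4.9 and 4.7 in P12.5 islets, against 4.1, 4.1, 4.0 and 4.0 (adjusted p = 0.00342), and 4.9, 4.7 and 4.6 in female grafts at P12.5, against 4.0, 4.2 and 4.2 (adjusted p = 0.0413). Its signal was at or below the lower quartile of the arrays in most samples. Male grafts read 4.7, 4.6 and 4.3 at P12.5 for Hmmr, against 4.3, 4.4 and 4.3 (adjusted p = 0.408). The remaining kinesins Kif20b, Kif4, Kif22, Kif2c and Kif15 were not called in any of the 3 settings, with islet changes of 0.28 to 0.53.

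Cytokinesis genes included the 1 gene called in male grafts. Of 8 genes of cytokinesis and the passenger complex, 5 rose in islets, 2 in female grafts and 1 in male grafts. Prc1, which bundles the antiparallel microtubules of the central spindle, read 5.9, 6.0, 5.9 and 5.7 in P12.5 islets, against 5.1, 5.2, 5.2 and 4.9 (change 0.78 ± 0.10, adjusted p = 0.00461). In female grafts it read 6.0, 5.9 and 5.6 at P12.5, against 5.0, 5.1 and 5.2 (change 0.73 ± 0.14, adjusted p = 0.0293). In male grafts it read 6.0, 5.7 and 5.7 at P12.5, against 5.2, 4.9 and 5.1, the same change of 0.73 ± 0.14 (adjusted p = 0.0351).

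Prc1 was thus called in all 3 settings, the only one of the 49 genes to be so, with every P12.5 array above every NP array. Its male graft call was kept without NP array 1 and lost without any 1 of the other 5 arrays, at changes of 0.63 to 0.80. It also ended with array medians subtracted (change 0.63, adjusted p = 0.0544), after a second quantile normalization (change 0.65, adjusted p = 0.0671) and with a replicate block (adjusted p = 0.0642, limma). Ect2, the exchange factor that switches on RhoA for the contractile ring, read 6.4, 6.3, 6.4 and 6.0 in P12.5 islets, against 5.5, 5.4, 5.5 and 5.2 (change 0.88 ± 0.11, adjusted p = 0.00567). It read 6.1, 6.7 and 6.0 in female grafts at P12.5, against 5.1, 5.5 and 5.6 (change 0.87 ± 0.19, adjusted p = 0.0465), and 6.2, 6.0 and 5.9 in male grafts at P12.5, against 5.2, 5.4 and 5.5, without overlap (change 0.67 ± 0.19, adjusted p = 0.110).

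Anln, the ring scaffold anillin, rose in islets (change 0.78 ± 0.08, adjusted p = 0.00159) and did not overlap in either graft type (changes 0.60 and 0.57, adjusted p = 0.0695 and 0.0997). Racgap1 and Kif23 form the centralspindlin complex, and both rose in islets, with changes of 0.75 ± 0.10 and 0.60 ± 0.11. Racgap1 had the widest error in grafts after Spc25 (SE 0.27), reading 7.3, 7.5 and 6.8 in female grafts at P12.5, against 6.4, 6.8 and 7.3. Birc5 (survivin) and Cdca8 (borealin), passenger complex subunits, were not called anywhere. Birc5 read 5.4, 5.2, 5.3 and 5.3 in P12.5 islets, against 5.0, 5.0, 4.8 and 5.4 (adjusted p = 0.470), and 5.4 in all 3 female grafts at P12.5, against 4.8, 5.3 and 5.0 (adjusted p = 0.140). In male grafts Birc5 read 5.4, 5.3 and 5.3 at P12.5, against 5.4, 5.1 and 5.3, and its change of 0.07 turned negative under other scalings (-0.03 with array medians subtracted and -0.01 after a second quantile normalization).

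None of the 4 genes grouped here under the anaphase-promoting complex and cohesin cleavage (Cdc20, Ube2c, Espl1 and Cdca3) was called in any setting. Cdc20, which activates that complex, read 6.3, 6.3, 6.4 and 5.8 in P12.5 islets, against 6.1, 5.9, 5.8 and 5.8, where P12.5 array 4 fell among the NP arrays (change 0.30 ± 0.14, adjusted p = 0.440). It read 6.1, 6.1 and 6.0 in female grafts at P12.5, against 5.8, 5.9 and 5.6 (adjusted p = 0.179), and 6.2, 6.2 and 5.9 in male grafts at P12.5, against 6.0, 5.8 and 5.9 (adjusted p = 0.374). Espl1, the separase that cleaves cohesin, had the smallest islet change of all, with 5.7, 5.7, 5.6 and 5.7 at P12.5 against 5.5, 5.4, 5.6 and 5.5 (change 0.18 ± 0.07, adjusted p = 0.350). In grafts Espl1 changed by 0.33 (female, adjusted p = 0.226) and 0.20 (male, adjusted p = 0.483).

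Cdca3, a trigger of mitotic entry, passed the adjusted p in islets (0.0265) with 6.1, 6.2, 6.1 and 6.2 at P12.5 against 5.8, 5.6, 5.6 and 5.8, a change of 0.45. It had the lowest change of the 49 genes in male grafts, with 5.7, 5.8 and 5.4 at P12.5 against 5.8, 5.8 and 5.7 (change -0.13 ± 0.13, adjusted p = 0.594), while female grafts read 6.2, 6.1 and 5.9 at P12.5 against 5.8, 5.8 and 5.6 (adjusted p = 0.163). Ube2c, the ubiquitin-conjugating enzyme of the same complex, changed by 0.33 in islets, 0.40 in female grafts and 0.33 in male grafts (adjusted p = 0.170, 0.126 and 0.207).

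**Figure D4:**
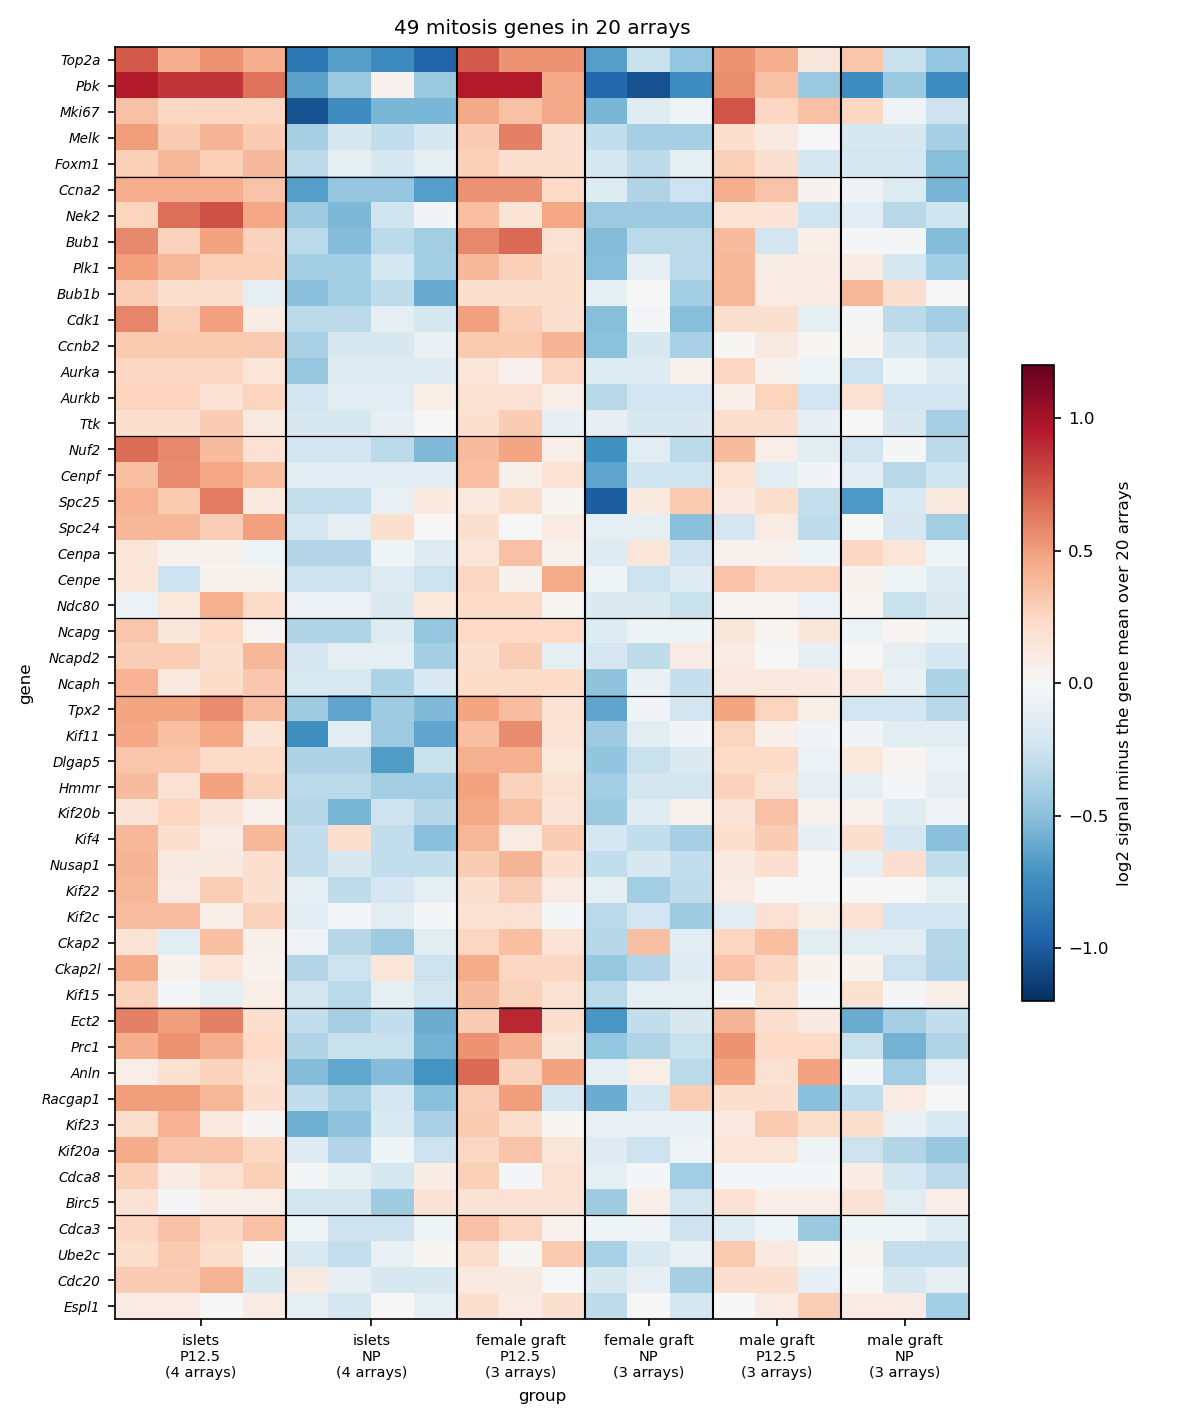
Log2 signal of the 49 mitosis genes (rows, by role and by islet change) in the 20 arrays (columns, by group), minus the mean of each gene over all arrays. The P12.5 columns of islets and female grafts are mostly red and their NP columns mostly blue, and male grafts show a paler contrast.

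The islet calls were also read against the promoter motifs. In islets, 12 of the 33 genes with a TTTGAA in the searched window and an array value were called, with a median change of 0.50, and 4 of the 8 without one were called, with a median of 0.58. The 4 were Bub1, Melk, Nek2 and Nuf2. With CCAAT the count was 13 of 31, and without it 3 of 10 (Anln, Melk and Nuf2). These genes share arrays, and the comparison is a description without a test.

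Calls in grafts of a single donor sex depended on single arrays more than calls in islets did. Each removal took 1 of 3 arrays from a graft group and 1 of 4 from an islet group. Leaving out 1 islet array at a time left 14 to 21 called genes of 49, with median changes of 0.52 to 0.56. In female grafts the count of 12 fell to 1, 0 and 3 without P12.5 arrays 1, 2 and 3, and to 2, 4 and 1 without NP arrays 1, 2 and 3, while the median change stayed between 0.43 and 0.52. Pbk was the named gene that held best there, called in all removals but that of P12.5 array 2, while the calls of Ccna2, Bub1, Nek2, Dlgap5, Hmmr and Ect2 were lost in each of the 6 removals. In male grafts the count was 0 or 1 in every removal (median change 0.20 to 0.30). For both donor sexes together it was 4 without male P12.5 array 1, 8 without female P12.5 array 3, female NP array 2 or male P12.5 array 2, and 9 without male NP array 1, and 5 to 7 otherwise.

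Donor sex was compared next, to ask whether male islets took the same course in a pregnant host as female islets. No mitosis gene was called in male against female NP grafts (0.0141% of probe sets called in either direction) or in male against female P12.5 grafts (0.0113%). At an unadjusted p under 0.05, 4 of the 49 genes passed in NP grafts, where 5% of probe sets did, and 5 at P12.5, where 3.58% did. The median difference, male minus female, was 0.10 in NP grafts, with 39 genes positive, and -0.13 at P12.5, with 44 genes negative. Bub1b showed the largest NP difference (0.37 ± 0.14), with 6.2, 6.0 and 5.8 in male NP grafts against 5.7, 5.8 and 5.4 in female NP grafts. At P12.5 Pbk differed most, by -0.63 ± 0.24.

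The difference between the male and the female response to host pregnancy was tested directly as an interaction. No gene passed after adjustment, for which 0% of all probe sets did, and 10 of the 49 had an unadjusted p under 0.05, where 4.99% of probe sets did. The change in male grafts minus that in female grafts was negative for 44 genes, with a median of -0.27 (-0.32 to -0.17 on leaving out single arrays), where the median was 0 over all probe sets and -0.03 over all genes. Pbk had the largest difference (-0.90 ± 0.33, unadjusted p = 0.0202, adjusted p = 0.955). Kif15 (-0.50 ± 0.15) and Ccnb2 (-0.50 ± 0.16) had the smallest p (unadjusted 0.00745 and 0.00898), and in Prc1, Aurka and Ttk the changes were equal. A smaller response in male grafts is therefore not shown for any single gene by these 12 arrays.

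Mean levels of lymphocyte, kidney and endothelial markers varied between graft groups, while those of myeloid markers varied little. Myeloid group means were 8.08 at P12.5 and 7.99 in NP hosts for female grafts, and 8.13 and 8.07 for male grafts. None of the 10 myeloid markers was called at P12.5 against NP in grafts of either donor sex. The 10 lymphocyte markers averaged 5.73 to 6.0 in male grafts at P12.5, against 6.49 to 7.31 in male NP grafts. All 10 changes were negative, with a median of -1.15, where the median over all probe sets was 0. B cell markers made part of it, since Ms4a1 read 4.2 to 4.8 in male grafts at P12.5, against 5.7 to 6.2 in male NP grafts. Ptprc, the CD45 antigen of all leukocytes, read 7.9 to 8.4 in male grafts at P12.5, against 8.5 to 9.3 in male NP grafts. Female grafts showed no such split, with lymphocyte means of 5.68 to 6.12 at P12.5 against 5.93 to 6.11 in NP hosts. Lymphocytes can divide, and the part of these cells in the mitosis gene levels of male NP grafts was not tested. The 15 kidney markers averaged 5.91 to 7.19 in female grafts at P12.5, against 7.81 to 8.64 in female NP grafts, with none called, and in male grafts 6.45 to 8.22 at P12.5 against 6.49 to 8.09. The part of kidney tissue in the female graft changes was not tested either. The 10 endothelial markers averaged 6.82 to 8.03 in male grafts at P12.5, against 6.54 to 7.0 in male NP grafts, with all 10 changes positive (median 0.55) and none called. In female grafts they averaged 6.47 to 7.55 at P12.5, against 6.47 to 7.47, with 9 of 10 changes positive (median 0.17) and none called, and in islets 7.59 to 7.79 at P12.5, against 7.67 to 7.84. The part of endothelial cells in the mitosis gene levels was not tested. In pancreatic islets the lymphocyte and kidney lists differed little, with lymphocyte means of 5.14 to 5.32 at P12.5 against 5.21 to 5.36 and kidney means of 5.37 to 5.45 against 5.35 to 5.50.

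**Figure D5:**
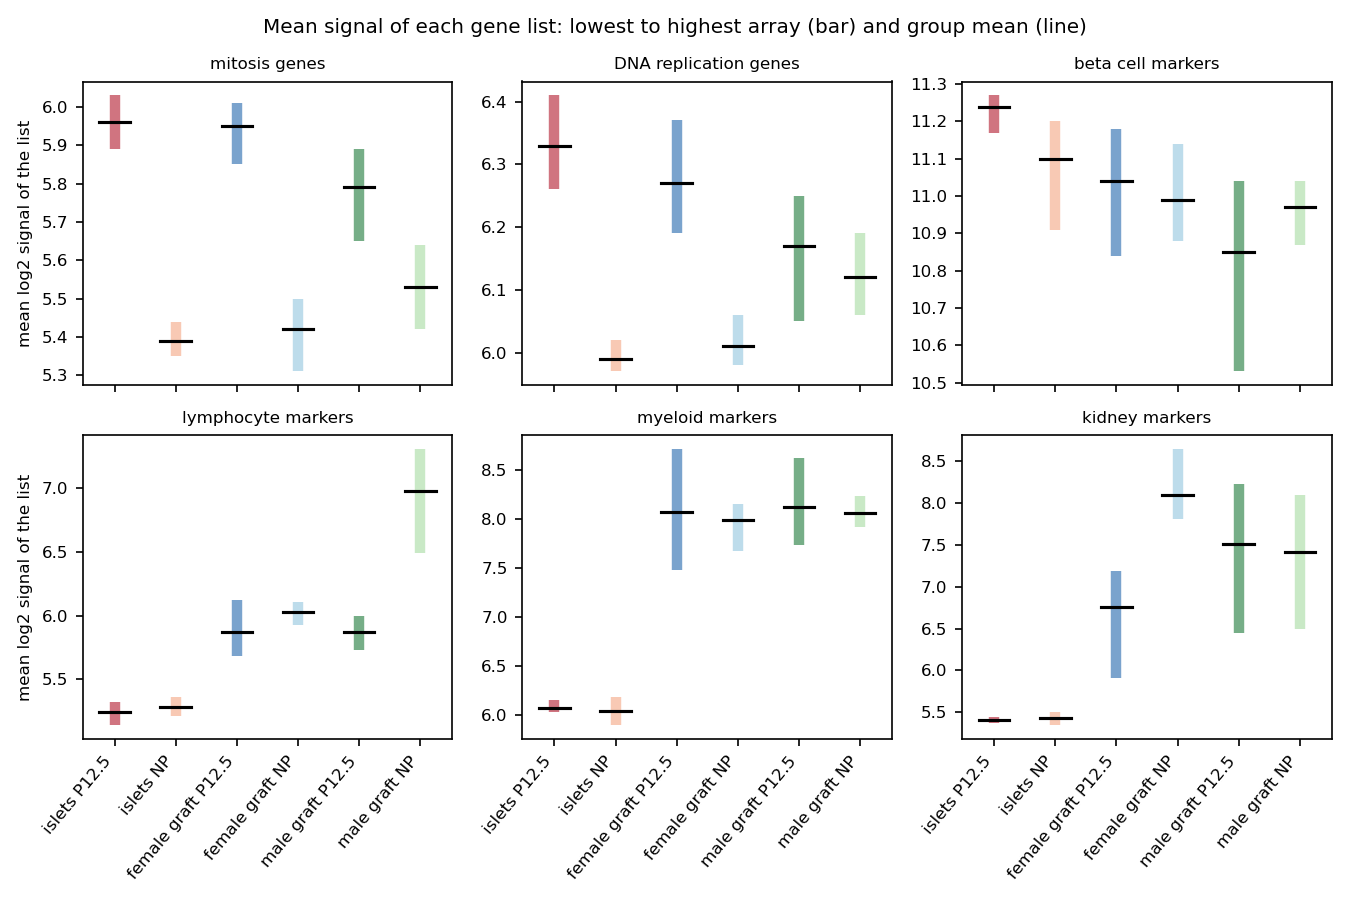
Mean log2 signal of 6 gene lists, as the range over arrays (bars) and the group mean (lines), each list on its own axis. Both the mitosis and the DNA replication list are higher at P12.5 in islets and female grafts. In male grafts the mitosis list is higher at P12.5 by a narrow gap (5.65 to 5.89 against 5.42 to 5.64), and the DNA replication list overlaps. The lymphocyte list is highest in male NP grafts (6.49 to 7.31).

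Grafts were also set against pancreatic islets in the same state of pregnancy. Between female grafts and islets mitosis genes differed little. No gene was called in female NP grafts against NP islets, where 11% of all probe sets were called in either direction, nor in female grafts against islets at P12.5, where 4.05% were. At an unadjusted p under 0.05, 10 genes passed in NP samples, where 40.8% of probe sets did, and 5 at P12.5, where 23.4% did. Median differences were 0 and -0.02, where all probe sets had medians of -0.08 and -0.07. By adjusted p alone 4 of the 49 genes were higher in female NP grafts than in NP islets, where 10.6% of probe sets were, so the count is no result about mitosis genes. These were Anln (0.48 ± 0.12, adjusted p = 0.00899), Mki67 (0.48 ± 0.15, adjusted p = 0.0269), Ncapg (0.24 ± 0.09, adjusted p = 0.0422) and Kif23 (0.33 ± 0.12, adjusted p = 0.0499).

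In male NP grafts against NP islets 3 genes were called higher, Mki67 (0.71 ± 0.15, adjusted p = 0.00270), Top2a (0.68 ± 0.16, adjusted p = 0.00467) and Bub1b (0.65 ± 0.13, adjusted p = 0.00120). This is 6.12% of the 49 genes, a share close to the 5.94% of all probe sets called up, and none of the 3 was called without male NP array 1. Differences were positive for 33 of the 49 genes and negative for 15, with a median of 0.075, where all probe sets had -0.067. Every male NP array lay above every NP islet array for 10 genes (20.4%), where 11.8% of probe sets did. For 0 genes they all lay below, where 16.9% of probe sets did. In male grafts against islets at P12.5 Pbk was called lower (-0.68 ± 0.20, adjusted p = 0.0342). It was 1 of the 49 genes, where 2.56% of probe sets were called down, so the count is no result about mitosis genes. That count became 3 without male P12.5 array 2 and 0 without male P12.5 array 3 or islet P12.5 array 2 or 3. The P12.5 differences were negative for 39 genes and positive for 10, with a median of -0.175, where all probe sets had -0.075. Every male P12.5 array lay below every islet P12.5 array for 10 of the 49 genes (20.4%), where 13.6% of probe sets did. They all lay above for 1 gene, where 9.25% of probe sets did. Myeloid markers averaged 7.68 to 8.16 in female NP grafts and 7.92 to 8.24 in male NP grafts, against 5.9 to 6.19 in NP islets, and acinar markers 5.08 to 5.21 and 5.03 to 5.29, against 7.82 to 9.75, so that the makeup of the samples differed.

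The response to pregnancy itself was compared between female grafts and islets as an interaction over all 20 arrays. No mitosis gene was called, where 0.0507% of probe sets were, and none of the 49 had an unadjusted p under 0.05, where 14.1% of probe sets did. The median difference, female graft change minus islet change, was -0.03 (-0.09 to 0.03 on leaving out single arrays), with 18 genes positive and 29 negative. Pbk again lay at one end (0.50 ± 0.29, adjusted p = 0.451), and Tpx2 (-0.34 ± 0.18, adjusted p = 0.397) and Kif23 (-0.33 ± 0.17, adjusted p = 0.388) had the smallest p. The median standard error of these differences was 0.17, so that for most single genes a moderate difference in either direction was not detectable.

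Other cell cycle genes were read from lists drawn up with earlier results of these data known. Of 68 measured mitosis genes outside the list, 8 rose in P12.5 islets (Ncapg2, Arhgap11a, Knl1, Spag5, Mad2l1, Cenpm, Kntc1 and Smc2), 5 in female grafts and none in male grafts, with median changes of 0.30, 0.27 and 0.08. Over all probe sets 0.614%, 0.836% and 0.479% were called up in these comparisons. Ncapg2, a condensin II subunit, led in islets at 0.90 ± 0.10 (adjusted p = 0.00328). Of 59 DNA replication genes, 8 rose in P12.5 islets, 2 in female grafts (Ccne1 and E2f1) and none in male grafts, with medians of 0.30, 0.27 and 0.07, beside the same shares of all probe sets. The islet calls were Uhrf1 (0.83 ± 0.11), the helicase subunits Mcm3, Mcm6 and Mcm2, Pcna, the clamp that holds DNA polymerase, Fen1, Rrm2 and Atad2. None of either list was called down in any of these 3 comparisons. Changes were positive for 67 of the 68 other mitosis genes in islets, 57 in female grafts and 41 in male grafts. For the 59 DNA replication genes these counts were 56, 53 and 38.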

How the data were processed

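RNA of islets and islet grafts was hybridised to Affymetrix MoGene 1.0 ST arrays. The authors normalized the arrays by RMA with aroma.affymetrix and deposited log2 signals per probe set, rounded to 1 decimal, so small changes take few values. Of 35511 probe sets, 21789 carried a single gene symbol, 1621 several and 12101 none. Where several single-symbol probe sets shared a gene, the one brightest on average stood for it. Contrasts were fitted with limma 3.58.1 in R 4.3.3 on log2 values, islets on 8 arrays, grafts on 12 and grafts against islets on 20, with Benjamini-Hochberg adjustment over all probe sets. The scripts were tested on simulated data. Promoters were searched in Python 3.11.15.

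The mitosis genes and all lists were chosen with earlier results of these data known. Values in every array were given for genes called in at least 2 of the 3 comparisons of P12.5 with NP, for 13 measured genes standing for the roles, and for the highest and lowest change in each comparison. Among these, Foxm1, Kif11 and Espl1 have their islet arrays printed and their graft changes only. Ccnb2, Bub1b, Nuf2, Tpx2, Spc25 and Racgap1 were added after their values were seen. Alternatives were other scalings, filters, variance models and fits, a replicate block and leaving out single arrays. The number of arrays limits the precision.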

Additional observations from a re-analysis of the deposited data

Results flagged for a closer look

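In 8 of the 50 groups of 4 islet arrays tested, for the genes whose arrays are given in full, 1 array stood apart from the other 3 by more than Dixon's 95% critical value, where chance gives about 1 in 20 groups. In 5 of the 8 the gap was a single rounding step of 0.1. These were Mki67 in P12.5 islet array 1 (6.4, the highest), Ccna2 and Aurka in P12.5 islet array 4 (6.6 each, the lowest), Aurkb in P12.5 islet array 3 (6.6, the lowest) and Espl1 in the same array (5.6, the lowest). The wider gaps were in Aurka, which read 6.0 in NP islet array 1, in Plk1, which read 6.1 in NP islet array 3 as the highest, and in Cdc20, which read 5.8 in P12.5 islet array 4 with a gap of 0.5 in a range of 0.6.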

How the results depend on the processing

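All counts here are of the 49 mitosis genes. Counts of probe sets beside them are out of 35511 and in either direction. Without a fold minimum 31 genes were called up in islets (475 probe sets) and 30 in grafts of both donor sexes (4602). Against NP islets 4 were called up in female NP grafts (10136) and 10 in male NP grafts (9109). In male grafts against islets at P12.5, 5 were called down (5117). With array medians subtracted 6 were called in female grafts (540 probe sets) and 0 in male grafts (542), where the median change became 0.133. After a second quantile normalization 7 female graft genes (567 probe sets), 0 male graft genes (366) and 1 gene of female NP grafts against NP islets (3898) were called. With all 20 arrays in one fit 3 were called in male grafts (1059 probe sets). The cause of these shifts was not tested. Birc5 in male grafts turned negative with array medians subtracted (-0.033), after a second quantile normalization (-0.008) and without NP array 2 (-0.017).

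When a replicate block was fitted, 9 genes were called for islets (132 probe sets), and 6 and 0 for female and male grafts (266 and 124). Deviations of same-numbered arrays correlated between -0.031 and 0.226 for islets, -0.242 and 0.074 for female grafts, and -0.132 and 0.141 for male grafts. These were low and mixed in sign. With so few arrays and no animals named, they cannot decide whether the numbers pair the arrays.

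Leaving out single arrays gave 14 to 21 called genes for islets, 0 to 4 for female grafts, 0 to 1 for male grafts and 4 to 9 for both sexes. Probe sets called in either direction numbered 184 to 299, 48 to 260, 46 to 479 and 947 to 1724. Against islets, leaving out arrays gave 0 to 1 up and 1 down in female NP grafts, the 1 down without NP islet array 1 (3381 to 4143 probe sets). It gave 0 to 3 up in male NP grafts (3499 to 4008) and 0 to 3 down in male P12.5 grafts (1340 to 3680). Median changes ranged from 0.517 to 0.558 for islets, 0.433 to 0.517 for female grafts, 0.2 to 0.3 for male grafts and 0.325 to 0.4 for both sexes. Male minus female medians ranged from 0.05 to 0.15 in NP grafts and -0.217 to -0.083 at P12.5, and the interaction from -0.317 to -0.167. Graft minus islet medians ranged from -0.025 to 0.05 (female NP), -0.067 to 0.05 (female P12.5), 0.05 to 0.175 (male NP) and -0.225 to -0.1 (male P12.5), and the interaction with pregnancy from -0.092 to 0.033.

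Of the single-gene values under all alternatives, 933 kept direction and side of the threshold, 103 lost a call, 11 gained one and 3 changed sign. In NP islets 12 of the 49 genes had a mean under the arrays' lower quartile, against 4 in P12.5 islets, and changes of such dim probe sets may be understated.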
